A study of Mus musculus with 18 samples.

Results

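The genes of the proteasome were followed in the hippocampus of 3 groups of mice. The first group was 4 AtrxΔE2 mice treated with 5-aminolevulinic acid (5-ALA), a building block of haem, at 3 mg/kg by mouth each day from postnatal day 30 to day 90. The second was 7 untreated AtrxΔE2 mice, which carry a mutant allele of Atrx, a gene for a chromatin remodeller, and the third was 7 wild-type (WT) mice. The labels give no age for the untreated groups, no sex, no vehicle treatment and no description of the allele beyond its name. Each mouse had 1 single-colour microarray. The arrays' identifiers fell into 2 series, the first with 3 AtrxΔE2 and 3 WT arrays and the second with the 4 5-ALA-treated, 4 AtrxΔE2 and 4 WT arrays, and groups were compared within a series only.

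Genes were taken by symbol, as every probe whose platform annotation begins with Psma, Psmb, Psmc, Psmd or Psme, without the immunoproteasome genes Psmb8 and Psmb9. The rule found 37 genes with 1 probe each among the 23473 probes of the array, and all 37 were among the 22538 probes that passed the filter on dim signal. One of them, Psmc3ip, encodes a meiotic recombination factor and has no place in the proteasome, so 36 genes are described, 14 of the core particle and 22 of the regulatory particle, its assembly chaperones (Psmd5, Psmd9 and Psmd10) and its activators. These 22 are called regulatory genes. On every array all 36 lay above the 95th percentile of the blank spots, but Psma8, the alpha subunit gene of the testis proteasome, was only just above it, with a mean log2 intensity of 5.95. Psma5, Psmb3, Psme2 and Psme3 were not analysed here. Psmb10 stayed in by the symbol rule, although its product is the inducible catalytic subunit that replaces the Psmb7 product in the immunoproteasome.

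The proteasome degrades proteins that carry ubiquitin chains. Its core particle is a barrel of stacked rings, in which alpha subunits form the gate and beta subunits enclose the proteolytic sites. The regulatory particle caps the barrel. Its ATPase ring (Psmc genes) unfolds the substrate and its other subunits (Psmd genes) bind ubiquitin and remove it, while the Psme genes encode alternative caps. In neurons the proteasome takes part in the turnover of synaptic proteins. Mammalian subunit genes are known to be raised together by the transcription factor that Nfe2l1 encodes when proteasome activity is low, through antioxidant response elements in their promoters.

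Promoter sequences are shown for 3 genes that changed in the comparisons below, because this kind of control acts through short promoter motifs. They are the 250 bases before the annotated gene start, written 5′ to 3′ on the gene's strand, from RefSeq on build GRCm38.p6, with the letters that match an antioxidant response element in capitals. The antioxidant response element was searched as TGACNNNGC, where N is any base, on both strands. The Psmb5 stretch is chr14:54617996-54618245 on the minus strand, the Psmd2 stretch is chr16:20651402-20651651 on the plus strand and the Psmc6 stretch is chr14:45329574-45329823 on the plus strand.
Psmb5: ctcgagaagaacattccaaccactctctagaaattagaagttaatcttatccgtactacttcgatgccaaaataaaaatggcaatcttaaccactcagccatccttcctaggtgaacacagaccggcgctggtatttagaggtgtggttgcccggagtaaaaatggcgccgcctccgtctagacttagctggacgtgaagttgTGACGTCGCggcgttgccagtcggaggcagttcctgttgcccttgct
Psmd2: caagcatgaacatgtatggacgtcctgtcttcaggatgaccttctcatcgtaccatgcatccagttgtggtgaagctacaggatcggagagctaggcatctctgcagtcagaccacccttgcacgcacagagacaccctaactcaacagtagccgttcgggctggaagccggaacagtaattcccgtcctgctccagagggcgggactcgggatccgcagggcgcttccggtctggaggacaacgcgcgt
Psmc6: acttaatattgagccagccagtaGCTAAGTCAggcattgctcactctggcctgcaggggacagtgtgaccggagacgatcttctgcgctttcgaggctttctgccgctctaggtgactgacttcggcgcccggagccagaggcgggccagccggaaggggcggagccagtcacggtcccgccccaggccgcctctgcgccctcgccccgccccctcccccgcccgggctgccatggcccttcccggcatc
Psmb5 held 1 match, at 47 to 39 bases before the start. Psmc6 held 1 match on the opposite strand, at 227 to 219 bases before the start, and these letters were not found in the Psmd2 stretch. Promoters of 300 bases (250 before the start and 50 after it) were found for 29 of the 36 genes, as 31 sequences. A gene counted when any of its sequences held the letters, whereas the shares of all promoters are counted per sequence. TGACNNNGC occurred in 6 of the 29 (20.7%: Psmb5, Psmb6, Psmc6, Psmd9, Psmd12 and Psme4), against 12.4% of the 32851 promoters of the same length in the table. CCAAT, the letters that nuclear factor Y binds, occurred in 10 of the 29 (34.5%), against 37.4% of all promoters. The 2 motifs were searched separately, with overlaps between them allowed, and a match is a description of the sequence only.

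Blank spots averaged 55.3 to 63.2 intensity units in the second series and 37.1 to 40.7 in the first, and the median probe lay 31.4 to 40.9 and 42.9 to 53.7 units above them. Atrx itself had log2 intensities of 6.01 to 6.23 on the 5-ALA arrays, 6.05 to 6.31 on the AtrxΔE2 arrays and 6.36 to 6.61 on the WT arrays of the second series, and of 6.38 to 6.51 on AtrxΔE2 and 6.82 to 7.08 on WT arrays of the first. One AtrxΔE2 array of the second series had no usable Atrx spot and was left out of these values. The groups with the mutant allele did not overlap WT in either series. The labels do not say which part of the transcript the Atrx probe covers. The second series lay at other levels than the first for many probes: limma called 41.6% of the tested probes different between the series in WT, against 5 of 14 core and 5 of 22 regulatory genes. A probe was called when its Benjamini-Hochberg adjusted p in limma's moderated test was under 0.05 over all tested probes.

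With 5-ALA, 3 of the 36 proteasome genes changed relative to untreated AtrxΔE2 mice. Psmd2, which encodes the scaffold of the cap that docks ubiquitin-carrying shuttles, and Psmb5, which encodes the chymotrypsin-like proteolytic subunit, rose. Psmb7, which encodes the trypsin-like subunit, fell. The 3 genes are 8.33% of the 36, beside 6.75% of all tested probes that were called in this comparison (787 higher and 735 lower), so the share of proteasome genes lay near that of the array as a whole.

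Psmd2 had normalized log2 intensities of 10.40, 10.31, 10.16 and 10.33 on the 5-ALA arrays, against 10.08, 10.04, 9.97 and 10.15 on the AtrxΔE2 arrays. Every 5-ALA array lay above every AtrxΔE2 array, the closest 2 by a margin smaller than the spread within either group. The difference was 0.24 ± 0.06 on the log2 scale (SE, limma adjusted p = 0.0256). On the authors' normalized intensities, Psmd2 averaged 567 ± 57.5 in 5-ALA-treated mice and 466 ± 32.9 in AtrxΔE2 mice (SD, n = 4 each), which is a ratio of 1.22.

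Psmb5 had log2 intensities of 12.010, 12.005, 11.958 and 11.972 on the 5-ALA arrays, against 11.869, 11.879, 11.857 and 11.784 on the AtrxΔE2 arrays. Here too the groups did not overlap. The difference was 0.14 ± 0.04 (SE, limma adjusted p = 0.0426). Relative to WT, at 11.91, 11.83, 11.92 and 12.04, the 5-ALA arrays lay within the WT range and Psmb5 was not called (0.07 ± 0.04, adjusted p = 0.295). Groups did not overlap for 2 of the 36 genes in the comparison with AtrxΔE2, Psmd2 and Psmb5, beside 11.4% of all tested probes.

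Psmb7 had log2 intensities of 10.39, 10.28, 10.44 and 10.63 on the 5-ALA arrays, against 10.80, 10.68, 10.73 and 10.59 on the AtrxΔE2 arrays. One 5-ALA array lay above the lowest AtrxΔE2 array. Its difference was -0.27 ± 0.06 (SE, limma adjusted p = 0.0246). In the third catalytic gene, Psmb6, for the caspase-like subunit, the difference was 0.03 ± 0.05 (adjusted p = 0.73). The inducible Psmb10 had 9.18, 8.78, 8.90 and 9.27 with 5-ALA, against 9.12, 9.40, 9.28 and 9.57 in AtrxΔE2 mice. Those ranges overlapped and the difference of -0.31 ± 0.16 was not called (adjusted p = 0.265).

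**Figure D1:**
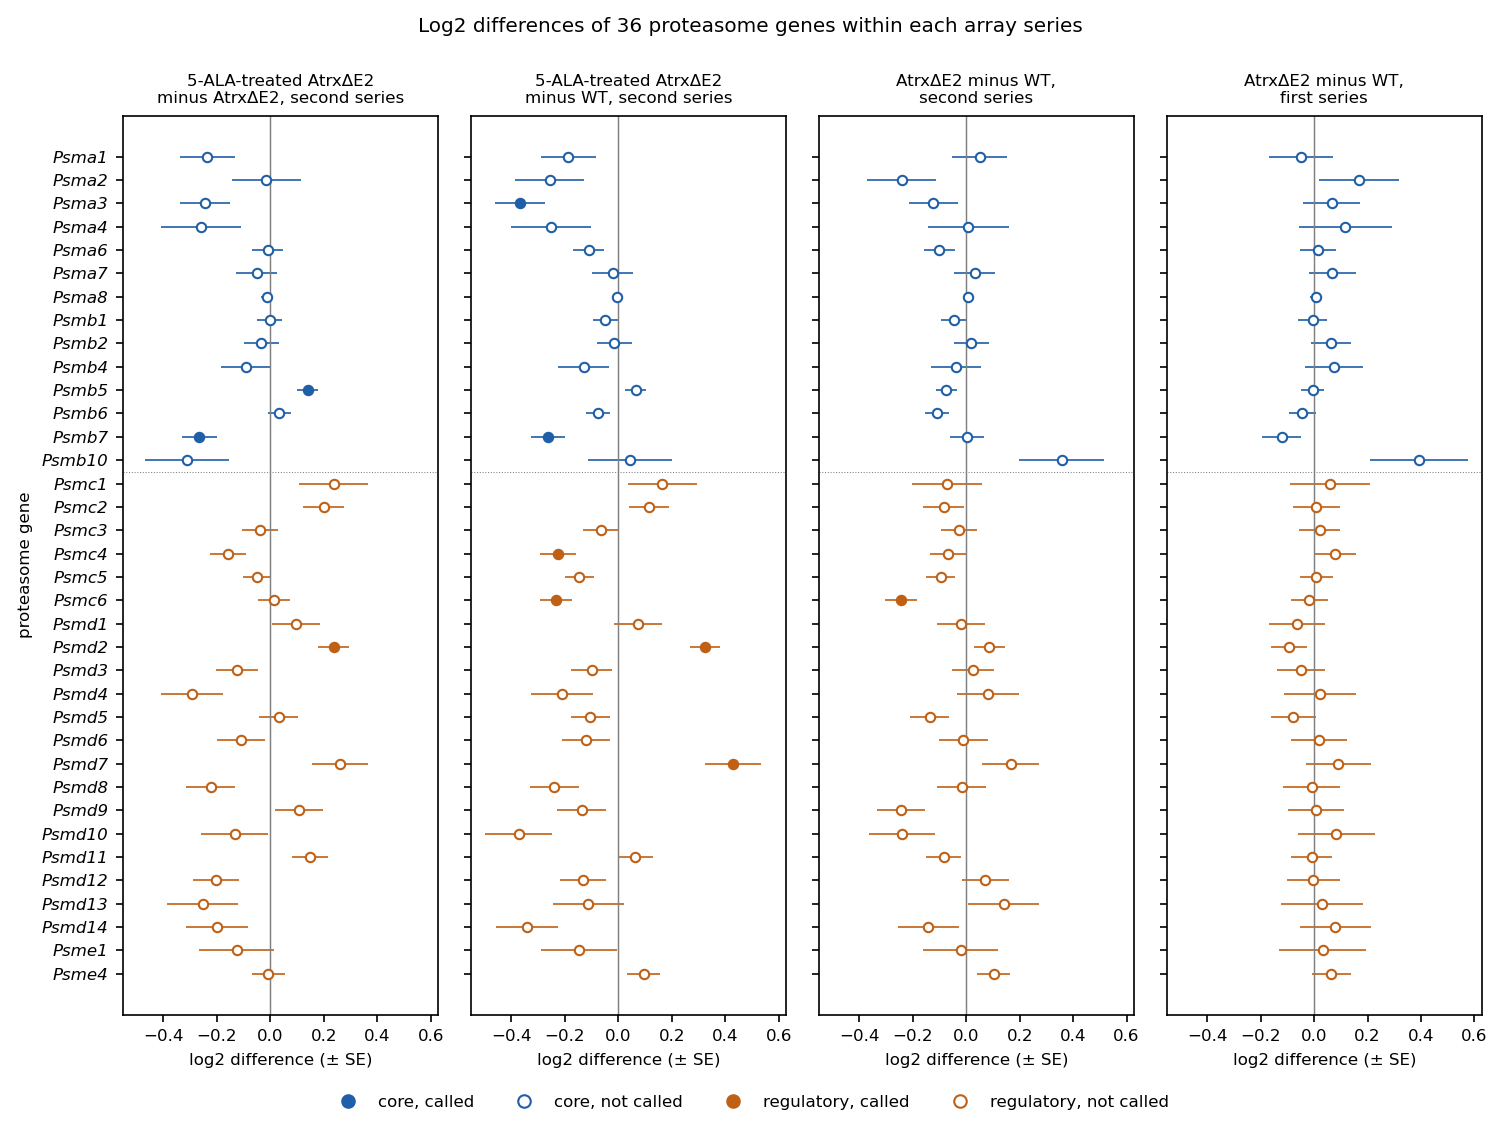
Log2 differences (horizontal axis, ± SE from limma) of the 36 proteasome genes (vertical axis; core above the dotted line, regulatory below) in the 4 within-series comparisons; filled points are called at an adjusted p under 0.05. From left to right 3, 6, 1 and 0 genes are called, and the first-series differences of all genes but Psmb10 lie between -0.12 and 0.17.

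Most core genes that were not called had small negative differences with 5-ALA. All 7 alpha subunit genes lay below 0 relative to AtrxΔE2 (median -0.05, range -0.26 to -0.01), though 6 did with median scaling or cyclic loess and 5 on the authors' values, and none of them was called. The core median was -0.04 and the regulatory median -0.04, beside -0.0004 over all tested probes, whose quartiles were -0.05 and 0.05. Leaving out 1 array at a time moved the core median between -0.0771 and -0.0292 and the regulatory median between -0.0642 and -0.00172. Above 0 were 11 of the 36 genes (30.6%), beside 49.6% of all tested probes. At an unadjusted p under 0.05 stood 12 of the 36, beside 22.3% of all tested probes. Among the ATPase genes, none was called and 3 of 6 lay above 0. The largest were Psmc1 (0.24 ± 0.13) and Psmc2 (0.20 ± 0.08, adjusted p = 0.132), and the lowest was Psmc4 (-0.16 ± 0.07, adjusted p = 0.185). For the ubiquitin receptor gene Psmd4 the difference was -0.29 ± 0.12 (adjusted p = 0.146) and for Psmd14, which encodes the cap's deubiquitinase, -0.20 ± 0.12 (adjusted p = 0.339). The activator genes Psme1 (-0.13 ± 0.14) and Psme4 (-0.01 ± 0.06) were not called either. In tissue RNA, fewer cells of a type and less RNA per cell cannot be told apart.

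The treated mice were not alike. In the second series the arrays of each group carried consecutive identifiers in pairs, and the labels do not say what a pair shares. 5-ALA arrays 1 and 2 formed one pair and 5-ALA arrays 3 and 4 the other. On arrays 1 and 2, 16 of the 36 genes lay below every AtrxΔE2 array on both (44.4%, beside 19.3% of all tested probes), 6 core and 10 regulatory genes. In 13 of the 36 they lay below every WT array as well (36.1%, beside 13.4%). On arrays 3 and 4 none did (0 of 36, beside 13.1% of all tested probes). This contrast was picked out after the values were seen. With other scalings, arrays 1 and 2 lay below every AtrxΔE2 array in 13 genes (median scaling), 14 (cyclic loess) and 15 (the authors' values). They did so in 13.1%, 20.3% and 21.2% of all tested probes with a value on each of these arrays. Arrays 3 and 4 did in 2, 1 and 0 genes, beside 13.4%, 12.9% and 12.7% of such probes.

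Psmd10 encodes an assembly chaperone of the ATPase ring. Its log2 intensities on the 5-ALA arrays were 7.87, 7.76, 8.37 and 8.30, against 8.17, 8.13, 8.41 and 8.13 in AtrxΔE2 mice and 8.44, 8.44, 8.37 and 8.54 in WT mice. Arrays 1 and 2 thus lay below all 8 untreated arrays, and arrays 3 and 4 lay within the AtrxΔE2 range and did not reach the lowest WT array. Psmd14 gave 9.84, 9.74, 10.37 and 10.24 with 5-ALA, against 10.32, 10.23, 10.26 and 10.18 in AtrxΔE2 mice. Psma4, an alpha ring gene, gave 9.59, 9.81, 10.36 and 10.37 with 5-ALA, against 10.18, 10.20, 10.63 and 10.15 in AtrxΔE2 mice. The same division held for Psma1, with 9.92, 9.85, 10.34 and 10.37 with 5-ALA, against 10.45, 10.28, 10.24 and 10.45 in AtrxΔE2 mice. The lid gene Psmd12 was divided in this way too, with 9.12, 9.14, 9.47 and 9.52 with 5-ALA, against 9.45, 9.45, 9.52 and 9.65 in AtrxΔE2 mice. Psmd4 was divided otherwise, since 5-ALA arrays 1, 2 and 4 had 10.05, 10.10 and 10.04 and array 3 had 10.64, against 10.40, 10.40, 10.51 and 10.70 in AtrxΔE2 mice.

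Some genes went the other way. Psmd7, which encodes the partner of the deubiquitinase in the lid, had 11.07 and 11.20 on 5-ALA arrays 1 and 2 and 10.68 and 10.83 on arrays 3 and 4, against 10.58, 10.76, 10.71 and 10.68 in AtrxΔE2 mice. It was one of 3 genes, with Psmb5 and Psmd2, in which both of arrays 1 and 2 lay above every AtrxΔE2 array (8.33%, beside 19.5% of all tested probes). Arrays 3 and 4 both lay above every AtrxΔE2 array in 4 genes: Psma6, Psmb5, Psmc2 and Psmd2 (11.1%, beside 12.3%). Psmb5 and Psmd2 were the 2 genes that were higher on all 4 treated arrays.

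**Figure D2:**
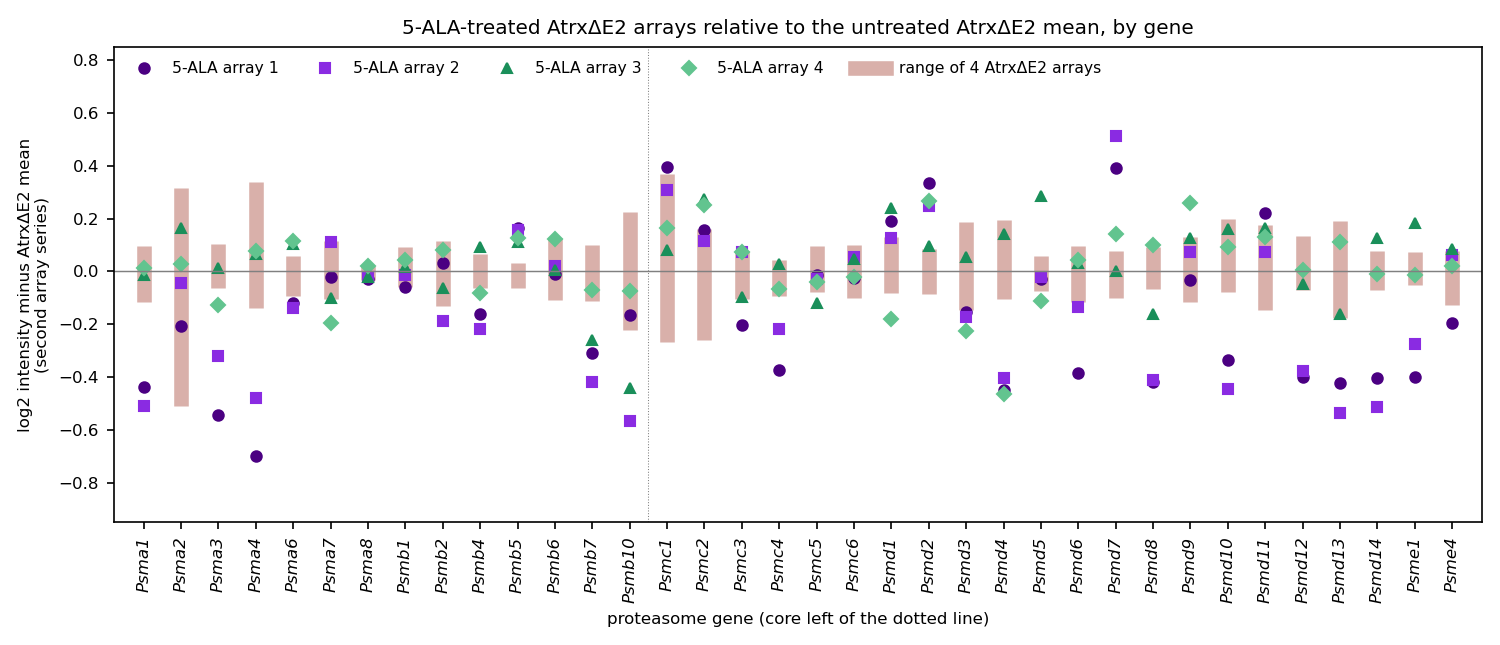
Log2 intensity of each 5-ALA array minus the AtrxΔE2 mean of the second series (vertical axis) for each proteasome gene (horizontal axis); bars span the 4 AtrxΔE2 arrays. Circles and squares (arrays 1 and 2) lie below the bar in 16 genes, triangles and diamonds (arrays 3 and 4) together in 0, and all 4 points lie above it in Psmb5 and Psmd2.

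The first pair lay over 0.25 log2 units below the second in 12 of the 36 genes among the 5-ALA arrays (33.3%, beside 7.53% of all tested probes), in 1 gene among the AtrxΔE2 arrays (Psma2; 2.78%, beside 3.63%) and in 1 among the WT arrays (Psmb10; 2.78%, beside 1.83%). The mean over the 14 core genes was 10.29, 10.28, 10.45 and 10.48 on the 5-ALA arrays, against 10.45 to 10.51 on the AtrxΔE2 arrays and 10.47 to 10.53 on the WT arrays of the second series. The regulatory mean was 9.71, 9.74, 9.90 and 9.85 on the 5-ALA arrays, against 9.81 to 9.85 and 9.86 to 9.89. Both means were thus lowest on 5-ALA arrays 1 and 2, and arrays 3 and 4 lay within or near the untreated ranges.

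The calls followed this division, which was picked out after the values were seen. Fits on either pair alone, here and against WT below, therefore describe the division and do not test it. Without 5-ALA arrays 1 and 2, limma called 0 of the 36 genes against AtrxΔE2 (5 at an unadjusted p under 0.05), beside 1.92% of all tested probes. Without arrays 3 and 4, 14 were called, 3 higher and 11 lower, beside 18.5% of all tested probes. Psmd2 differed by 0.18 (adjusted p = 0.212) on arrays 3 and 4 alone and by 0.29 (adjusted p = 0.00685) on arrays 1 and 2 alone. For Psmb5 these values were 0.12 (adjusted p = 0.257) and 0.16 (adjusted p = 0.0373), and for Psmb7 -0.17 (adjusted p = 0.235) and -0.36 (adjusted p = 0.0013). With each consecutive pair averaged before the limma fit, none of the 36 genes was called (4 at an unadjusted p under 0.05), beside 0.102% of all tested probes called (11.7% at an unadjusted p under 0.05), and Psmd2, Psmb5 and Psmb7 had adjusted p = 0.298, 0.323 and 0.209. Of single arrays, leaving out 5-ALA array 1, 5-ALA array 2 or AtrxΔE2 array 6 left 0 called genes, beside 2.6%, 3.11% and 5.31% of all tested probes. Leaving out AtrxΔE2 array 4 or 5 left 1, beside 3.85% and 3.82%, and leaving out 5-ALA array 3 gave 7, beside 8.96%.

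**Figure D3:**
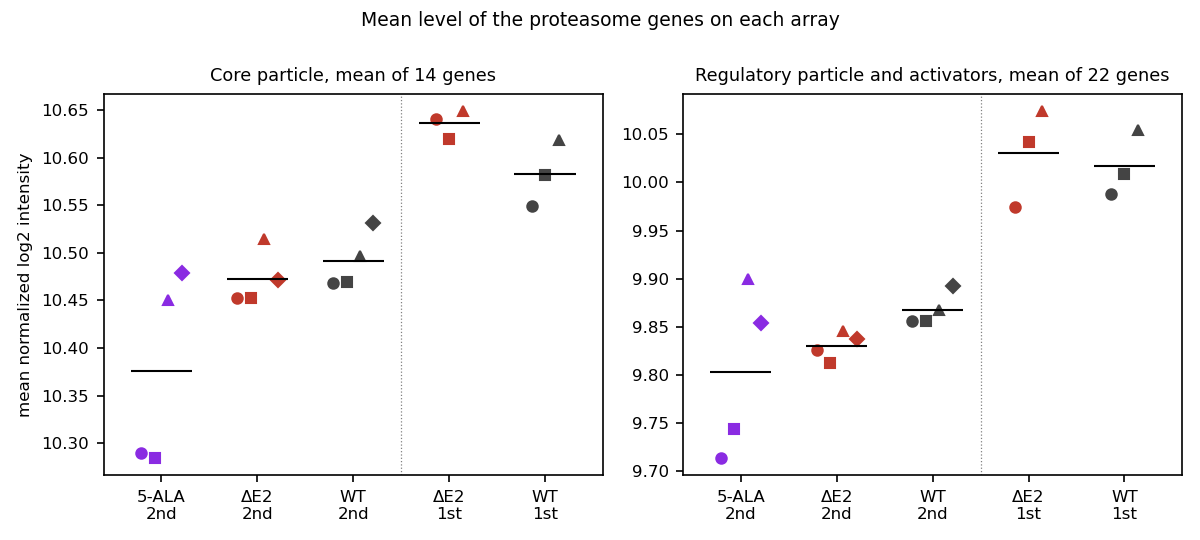
Mean normalized log2 intensity (vertical axis) of the 14 core genes (left) and the 22 regulatory and activator genes (right) on each array, by group and array series; each point is 1 array, each bar a group mean, and ΔE2 stands for AtrxΔE2. In the second series 5-ALA arrays 1 and 2 lie below all untreated arrays in both panels. In the core panel array 3 does so too, by a small margin (10.45 against 10.4529 on AtrxΔE2 array 4). Both panels show higher levels in the first series.

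Against WT, 5-ALA-treated AtrxΔE2 mice had 6 called genes of 36 (16.7%), beside 10.4% of all tested probes (1238 higher and 1097 lower). Psmd2 and Psmd7 rose. Psma3 of the alpha ring, Psmb7, and the ATPase genes Psmc4 and Psmc6 fell. The 5-ALA arrays are the same as in the comparison above, so the 2 sets of differences are not independent.

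Psmd2 was at 10.009, 10.004, 9.954 and 9.925 on the WT arrays, all below the 4 5-ALA arrays. Its difference of 0.32 ± 0.06 (SE, limma adjusted p = 0.00448) was larger than the spread within either group. Psmd7 was at 10.25, 10.61, 10.64 and 10.57 in WT mice, and the difference was 0.43 ± 0.10 (adjusted p = 0.0212). Psma3 had 9.04, 9.27, 9.60 and 9.46 on the 5-ALA arrays, against 9.77, 9.67, 9.61 and 9.79 on the WT arrays. All 5-ALA arrays lay below WT, arrays 1 and 2 by most, and the difference was -0.37 ± 0.09 (adjusted p = 0.023). Psmb7 was at 10.70, 10.79, 10.60 and 10.68 in WT mice and differed by -0.26 ± 0.06 (adjusted p = 0.0209), with 5-ALA array 4 inside the WT range.

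Psmc4 had 9.25, 9.41, 9.65 and 9.56 with 5-ALA, against 9.74, 9.69, 9.66 and 9.68 in WT mice (-0.23 ± 0.07, limma adjusted p = 0.0487). Psmc6 had 10.24, 10.32, 10.32 and 10.25 with 5-ALA, against 10.65, 10.50, 10.53 and 10.39 in WT mice (-0.23 ± 0.06, adjusted p = 0.0261). In neither gene did the groups overlap, and in Psmc6 the 4 treated arrays lay close together. Groups did not overlap in 8 of the 36 genes (beside 16.1% of all tested probes), with Psmc2, Psmd2 and Psmd7 higher and Psma3, Psmc4, Psmc5, Psmc6 and Psmd10 lower. The core median was -0.09 and the regulatory median -0.12, beside 0.002 over all tested probes, but with median scaling they were -0.008 and -0.004. Psmd4 (-0.21 ± 0.12), Psmd14 (-0.34 ± 0.12, adjusted p = 0.072), Psmb6 (-0.08 ± 0.05), Psmb10 (0.04 ± 0.16), Psme1 (-0.15 ± 0.14) and Psme4 (0.10 ± 0.06) were not called.

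Without 5-ALA arrays 1 and 2, limma called 0 of the 36 genes against WT (7 at an unadjusted p under 0.05), beside 1.96% of all tested probes, and Psmd2 had the smallest adjusted p of the 6, with a difference of 0.27 (adjusted p = 0.0644). Psmc6 was as low on arrays 3 and 4 as on arrays 1 and 2 (-0.23 in each case, adjusted p = 0.141 and 0.0464), whereas Psma3 was at -0.18 on arrays 3 and 4 and at -0.55 on arrays 1 and 2. Without arrays 3 and 4, 14 genes were called, 2 higher and 12 lower, beside 23.5% of all tested probes. With consecutive arrays averaged, limma called 0 (6 at an unadjusted p under 0.05), beside 0.0666% of all tested probes (14.6%), and with pairs as a random block 1, beside 3.1%. Leaving out 5-ALA array 1 or array 2 alone left 1 called gene, beside 5.3% and 4.37% of all tested probes, leaving out WT array 4 left 2, beside 6.68%, and leaving out 5-ALA array 3 gave 10, beside 14.9%.

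**Figure D4:**
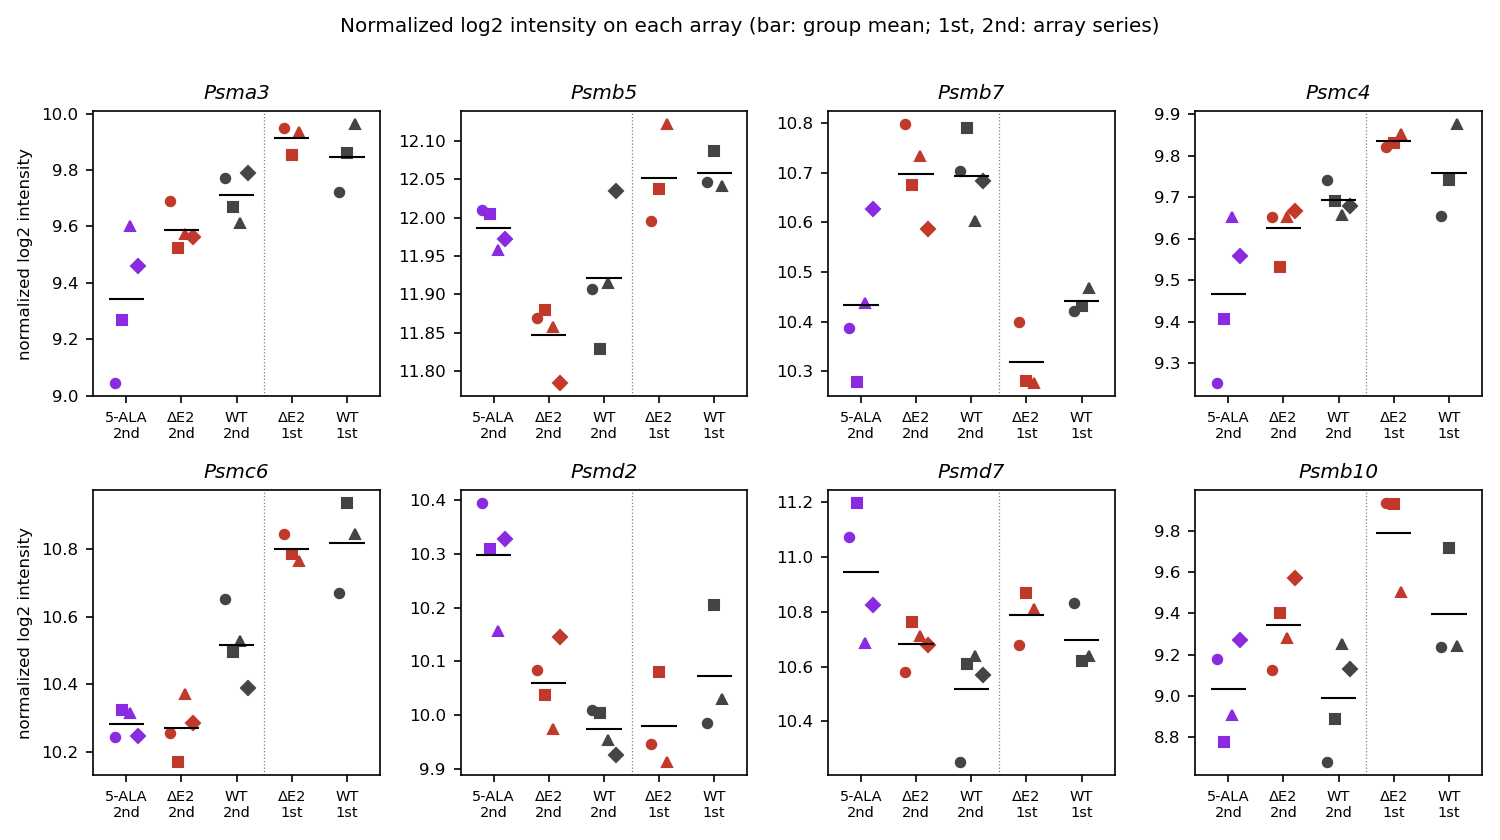
Normalized log2 intensity (vertical axis) on each array of the 7 genes called in any comparison and of Psmb10, by group and array series (each panel has its own scale; each point is 1 array, each bar a group mean, and ΔE2 stands for AtrxΔE2). Psmd2 is high on all 4 5-ALA arrays, and Psmc6 is low in both AtrxΔE2 groups of the second series and at the WT level in the first.

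Between AtrxΔE2 and WT mice of the second series, 1 of the 36 genes was called (2.78%), beside 2.41% of all tested probes (274 higher and 269 lower). It was Psmc6, an ATPase gene of the cap base, which fell. Its log2 intensities were 10.26, 10.17, 10.37 and 10.29 in AtrxΔE2 mice, against the WT values above, so that every AtrxΔE2 array lay below every WT array. The difference was -0.24 ± 0.06 (SE, limma adjusted p = 0.0443). In the first series, AtrxΔE2 arrays had 10.84, 10.79 and 10.76, within the WT range of 10.67, 10.94 and 10.84, and the difference was -0.02 ± 0.07. The difference between the 2 series in the genotype effect on Psmc6 was -0.23 ± 0.09 and was not called (limma adjusted p = 0.493). Psmc6 lost its call in 14 of the 18 fits that left out 1 array, and had adjusted p = 0.454 with consecutive arrays averaged.

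All 6 ATPase genes lay below 0 in the second series (median -0.08, range -0.24 to -0.03), beside quartiles of -0.04 and 0.05 over all tested probes, but 5 of the 6 lay above 0 in the first (median 0.01). With arrays scaled to a common median in place of quantile normalization, the core and regulatory medians of the second series were 0.13 and 0.10, and 5 of the 6 ATPase genes, all but Psmc6, lay above 0. Groups did not overlap in 3 of the 36 genes, Psma6, Psmc6 and the assembly chaperone gene Psmd9, all lower, beside 12% of all tested probes. The core median was -0.02 and the regulatory median -0.02, beside 0.002 over all tested probes. Psmb5 (-0.07 ± 0.04), Psmb6 (-0.11 ± 0.05), Psmb7 (0.004 ± 0.06), Psmd4 (0.08 ± 0.12), Psmd14 (-0.14 ± 0.12), Psme1 (-0.02 ± 0.14) and Psme4 (0.10 ± 0.06) were not called.

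Psmb10 had positive genotype differences in both series without being called. In the second it had 9.12, 9.40, 9.28 and 9.57 in AtrxΔE2 mice, against 8.68, 8.89, 9.25 and 9.13 in WT mice (0.36 ± 0.16, limma adjusted p = 0.275). In the first it had 9.935, 9.929 and 9.503 in AtrxΔE2 mice, against 9.234, 9.717 and 9.241 in WT mice (0.39 ± 0.18, adjusted p = 1). The ranges overlapped in both series. Fitted over both series with the series as a covariate, the genotype difference was called for 0 of the 36 genes, with a smallest adjusted p of 0.263 among them, and for 20 of all tested probes.

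In the first series, none of the 36 genes was called between AtrxΔE2 and WT beside 0.00887% of all tested probes, which is 2 probes. At an unadjusted limma p under 0.05 stood 1 of the 36, beside 3.02% of all tested probes. The core median was 0.04 and the regulatory median 0.01. Groups did not overlap in Psma2 (higher) and Psmb7 (lower), 2 of 36 beside 7.47% of all tested probes. Psmb7 had 10.40, 10.28 and 10.28 in AtrxΔE2 mice, against 10.42, 10.43 and 10.47 in WT mice (-0.12 ± 0.07). Psmb5 (-0.01 ± 0.04), Psmb6 (-0.04 ± 0.05), Psmd4 (0.02 ± 0.13), Psmd14 (0.08 ± 0.13), Psme1 (0.03 ± 0.16) and Psme4 (0.06 ± 0.07) were not called. The genotype difference itself differed between the series in 0 of the 36 genes, beside 0.102% of all tested probes. At an unadjusted limma p under 0.05 stood 1 of the 36, beside 8.94%.

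Single genes and particle means were then compared across arrays. Over all 18 arrays, as deviations from the mean of each group in its series, the median Pearson correlation was 0.16 over 91 pairs of core genes, 0.09 over 231 pairs of regulatory genes and 0.15 over 308 mixed pairs. Between these genes and all other tested probes it was -0.01. The correlation was over 0.5 in 16.5% of the core pairs, 15.6% of the regulatory pairs and 14.6% of the mixed pairs, against 6.82% of the pairs with other probes. Between the core mean and the regulatory mean it was 0.85. Arrays share their hybridisation and scaling in these values, and the 2 5-ALA pairs weigh heavily in them. Psmd10 (0.91), Psmd14 (0.85), Psmc4 (0.83), Psmd12 (0.80) and Psma4 (0.78) followed the mean of the other 35 genes most closely, and each of these was low on 5-ALA arrays 1 and 2. Psmd7 (-0.61), Psmc1 (-0.50), Psmd2 (-0.48) and Psma7 (-0.45) ran against it.

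The core mean of untreated AtrxΔE2 mice was 10.47 ± 0.03 in the second series (SD, n = 4) and 10.64 ± 0.01 in the first (SD, n = 3), and that of WT mice was 10.49 ± 0.03 and 10.58 ± 0.03. Between series, 8 of 14 core genes were called in AtrxΔE2 mice (1 higher and 7 lower in the second), beside 42.9% of all tested probes, and 8 of 22 regulatory genes, all lower. In WT mice 5 of 14 core genes were called (2 higher and 3 lower in the second series) and 5 of 22 regulatory genes (1 higher and 4 lower), beside the 41.6% given above. The summed intensity of 6 oligodendrocyte markers also differed, with 27300 to 29600 in AtrxΔE2 and 25600 to 31200 in WT mice of the second series and 4530 to 9310 and 4890 to 5730 in the first, and its part in these values was not tested. The labels do not say in what the array series differ.

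Genes that act with the proteasome were listed by role and measured in the same fits. Both immunoproteasome catalytic genes that the rule left out were lower in 5-ALA-treated mice than in WT mice. Psmb8 had 7.251, 6.760, 6.974 and 6.904 with 5-ALA, against 7.528, 7.522, 7.609 and 7.491 in AtrxΔE2 mice and 7.669, 7.769, 8.004 and 7.838 in WT mice. All treated arrays lay below all untreated ones, arrays 3 and 4 included. Its differences were -0.57 ± 0.11 against AtrxΔE2 (limma adjusted p = 0.00845) and -0.85 ± 0.11 against WT (adjusted p = 0.001). Psmb9 differed by -0.29 from WT (adjusted p = 0.00803).

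Nfe2l1, whose product is the factor that raises subunit genes, rose with 5-ALA relative to AtrxΔE2. It had 9.54, 9.59, 9.25 and 9.19 on the 5-ALA arrays, against 9.09, 8.94, 9.13 and 9.05 in AtrxΔE2 mice (0.34 ± 0.09, limma adjusted p = 0.0426). It was highest on arrays 1 and 2. Against WT its difference was 0.30 (adjusted p = 0.0547). It was the 1 gene called of 8 on the list of transcriptional control. Of 14 other subunits and proteasome-bound proteins, 1 rose against AtrxΔE2, the shuttle gene Ubqln1 (0.21), and 1 fell, the proteasome-bound thioredoxin gene Txnl1 (-0.57). Txnl1 had 9.08, 9.23, 9.87 and 9.74 with 5-ALA, against 10.18, 10.07, 10.01 and 9.95 in AtrxΔE2 mice, and so was also lowest on arrays 1 and 2. Against WT, Ubqln2 rose (0.28) and Rad23b, another shuttle gene, fell (-0.20).

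None of the 5 other measured assembly chaperone and inhibitor genes, the 6 of the p97 segregase, the 6 of the TRiC chaperonin or the 2 of ubiquitin activation was called in any comparison. Of the 9 COP9 signalosome genes, whose complex resembles the proteasome lid, Cops4 fell against WT (-0.35). The division between the treated arrays was present in 3 of the lists just named. The summed normalized intensity of the COP9 genes was 7630 on 5-ALA arrays 1 and 2 and 8340 to 8370 on arrays 3 and 4, against 7870 to 8580 in AtrxΔE2 mice. For the assembly chaperones the sums were 2910 to 3080 and 3860 to 3880, against 3640 to 3970, and for the TRiC genes 8640 to 8830 and 10000 to 10100, against 9520 to 10400. It was absent from the p97 sums, which were 4280 to 4320 on 5-ALA arrays 1 and 2 and 4270 to 4500 on arrays 3 and 4, against 3880 to 4490 in AtrxΔE2 mice. The ubiquitin activation sums did not show it either, with 1110 to 1760 and 1240 to 1430, against 1300 to 1420. For the 14 other subunits and proteasome-bound proteins the sums were also lower on arrays 1 and 2, with 8720 to 8760 and 9260 to 9400, against 8840 to 9130. The sums of the transcriptional control list ran the other way, with 2210 to 2280 and 2020 to 2140, against 1970 to 2140.

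Markers of other cells moved beside these values. Of 9 measured microglial genes, 3 fell with 5-ALA against AtrxΔE2 and 5 against WT, and their summed intensity was 3500 to 3710 on the 5-ALA arrays, against 4410 to 5210 on AtrxΔE2 and 4660 to 5200 on WT arrays of the second series. The microglial sum was alike on 5-ALA arrays 1 and 2 (3500 to 3670) and on arrays 3 and 4 (3690 to 3710), but single microglial genes were not. P2ry12 had log2 intensities of 6.852 and 6.833 on 5-ALA arrays 1 and 2 and 7.725 and 7.471 on arrays 3 and 4. Ctss was also lower on arrays 1 and 2, whereas C1qb, Csf1r and Tmem119 were higher there. Of 6 oligodendrocyte genes, 1 fell, with sums of 20900 to 22400 on 5-ALA arrays 1 and 2 and 23400 to 24100 on arrays 3 and 4, against 27300 to 29600 in AtrxΔE2 mice. Of 7 neuronal genes, 1 rose and 1 fell, with sums of 18800 to 19400 and 20200 to 20700, against 19500 to 21100. These 2 sums were thus lower on arrays 1 and 2 than on arrays 3 and 4, as the core and regulatory means were. Bright genes weigh most in such sums, and single genes were divided. Mbp, Mobp, Cldn11, Snap25 and Nefm were lower on both of arrays 1 and 2 than on arrays 3 and 4. Cnp, Mal, Mag, Camk2a and Nefl were higher there, and the other neuronal genes overlapped. Of 8 astrocyte genes, 2 fell in AtrxΔE2 against WT mice of the second series, with sums of 12200 to 13500 in AtrxΔE2 mice, against 14200 to 15400 in WT mice. Of 7 endothelial genes, 1 rose and 1 fell with 5-ALA against AtrxΔE2. Their sums were 2950 to 3140 on the 5-ALA arrays, against 3240 to 3410 on AtrxΔE2 and 3370 to 3550 on WT arrays of the second series. Neither of 2 red cell genes was called, with sums of 857 to 1070, against 953 to 1290 and 928 to 1300. Of 7 choroid plexus genes, 3 fell with 5-ALA and 4 rose in AtrxΔE2 against WT mice, and their sum, mostly Ttr, was 47500 to 55700 on all arrays of the second series and 409 to 561 on those of the first. On 11 of the 12 arrays of the second series Ttr was at the highest value of the array, so the choroid plexus sum cannot show differences between those groups. Every marker measured on these lists lay above the blank spots on all 18 arrays, but not always by much. The choroid plexus marker Cldn2, at 5.75 to 5.84 in the first series, lay even lower there than Psma8. The part of any cell type in the proteasome values was not tested. Psmc3ip, caught by its symbol only, fell with 5-ALA by 0.25 against AtrxΔE2 (limma adjusted p = 0.021).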

How the data were processed

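Hippocampal RNA of 18 mice had been hybridised to 1 single-colour array each. Amino allyl RNA was made from total RNA and coupled to Cy5, per the labels. Per the file headers, the deposited value of a spot is a median intensity at 635 nm, scanned at 3 gains. The authors also deposited 1 normalized intensity for each probe and array, whose making is not given in the sources used here. It was used as an alternative after taking log2.

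Normexp (limma, offset 50) was applied to the spot intensities, without the deposited background, which followed the spots' own brightness. Unusable spots, at most 16 per array, were dropped. Values are log2 intensities after quantile normalization, averaged over a probe's spots. Tests covered probes brighter than the 95th percentile of blank spots on 4 or more arrays, and 82 of the 22538 tested probes were fitted with a missing array. A single limma model (limma 3.58.1, R 4.3.3) gave each group in each array series its own mean, with all arrays sharing the spread, and Benjamini-Hochberg adjustment over all tested probes. Array series come from the identifiers of the arrays. The number of arrays limits precision. The fit was tested on simulated data.

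The members, gene lists and alternatives were chosen with earlier results of these data known. Named were the called members, the catalytic beta, Psmd4, Psmd14, ATPase and Psme genes in each comparison, and called genes of the listed pathways; other names were chosen after their values were seen, as examples of the division between treated arrays. Genes were named by the platform annotation, and all 37 symbols were current in RefSeq.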

Additional observations from a re-analysis of the deposited data

Results flagged for a closer look

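Dixon's ratio, which chance passes in about 1 of 20 groups, marked 1 array as far from the others in 3 of the 57 groups of 4 arrays examined. These covered the core mean, the regulatory mean and 17 proteasome genes, which were the called genes and those named in every comparison. Genes named only as examples of the division between treated arrays were not examined. Psmd4 had a log2 intensity of 10.644 on 5-ALA array 3, against 10.036 to 10.096 on the other 5-ALA arrays. Psmc4 had 9.5309 on AtrxΔE2 array 5, against 9.6516 to 9.6671 on the other AtrxΔE2 arrays of the second series. Psmd14 had 10.23 on WT array 5, against 10.431 to 10.462 on the other WT arrays of that series.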

How the results depend on the processing

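No difference called in the 36 genes turned its direction under any alternative. Of 36 genes called for 5-ALA against AtrxΔE2 (3 as reported), median scaling gave 1, the authors' values 0, each series alone 1, only the groups compared 0, pairs averaged or as a random block 0, without 5-ALA arrays 1 and 2 0, and without arrays 3 and 4 14. Over all tested probes, 1522 were called as reported, 973 with median scaling, 728 on the authors' values, 1153 with each series alone and 471 with only the groups compared. With pairs averaged 23 were called, with pairs as a block 371, without arrays 1 and 2 433, and without arrays 3 and 4 4163. For 5-ALA against WT (6 of the 36 genes as reported), the counts were 3 with median scaling, 1 with only the groups compared, 0 with pairs averaged, 1 with pairs as a block, 0 without arrays 1 and 2 and 14 without arrays 3 and 4. The calls over all tested probes were 2335 as reported and, in the same order, 1628, 1159, 15, 699, 442 and 5291. For AtrxΔE2 against WT in the second series (1 as reported), the count was 0 with median scaling, cyclic loess, each series alone, only the groups compared, pairs averaged or as a block, both series with the series as a covariate, and without either 5-ALA pair. The calls over all tested probes were, in the same order, 3938, 391, 451, 547, 36 (averaged), 147 (block) and 20, then 768 without 5-ALA arrays 1 and 2 and 781 without arrays 3 and 4. With the replicate number as a block over 14 AtrxΔE2 and WT arrays, the count of the 36 genes was 0 too, with 413 probes called, against 543 as reported. Numbers are not shown to pair these arrays: same-numbered arrays correlated between -0.138 and 0.508. No paired analysis was possible for 5-ALA against AtrxΔE2 because they share 1 number in the second series.

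Leaving out each array in turn gave 0 to 7, 1 to 10 and 0 to 1 called genes in these 3 comparisons. Over all tested probes the calls ran from 586 to 2179, from 984 to 3364 and from 250 to 621. In the first series the core median ran from -0.00291 to 0.0491 in these fits. For 5-ALA against WT the medians ran from -0.119 to -0.0669 in the core and from -0.152 to -0.0612 in the regulatory genes. In the second series the genotype medians ran from -0.0570 to -0.00773 in the core and from -0.0502 to -0.0175 in the regulatory genes.

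Median scaling gave medians of -0.0767 in the core and -0.0950 in the regulatory genes for 5-ALA against AtrxΔE2, 0.121 and 0.0951 for genotype in the first series, 0.126 and 0.0998 in the second, and -0.00832 and -0.00416 for 5-ALA against WT. On the authors' values the genotype medians of the second series were -0.0751 and -0.101. With quantile normalization and both series fitted together, the core median for genotype was -0.0105. Without 5-ALA arrays 1 and 2, the regulatory median was 0.0441 against AtrxΔE2, and the medians against WT were -0.00347 and -0.0134. Without arrays 3 and 4, the core median was -0.128 against AtrxΔE2 and the regulatory median -0.193 against WT. The cause of these changes was not tested. Over all tested probes, the calls for 5-ALA against WT were 1238 higher and 1097 lower as reported, 1194 and 434 with median scaling, and 425 and 2328 on the authors' values, where the median of all probes lay at -0.11. For genotype in the second series they were 274 and 269, 1282 and 2656, and 52 and 301. The mean of a gene's probes was not run, since each gene had 1 probe. Of the 36 genes, Psma8 lay nearest to the blank spots.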
